A study of Mus musculus with 2 samples.

Results

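The genes described here encode complement and coagulation factors, plasma proteins that the liver makes and secretes. The list names 39 genes of these protein families, and no measured value enters the rule, though earlier results of these data were known when it was made. A gene entered when a probe set of the array named it as its only gene, which held for 36 of the 39, out of 19938 genes with such a probe set. Where a gene had several such probe sets, the brightest on average stood for it. No probe set named C3 or Cfd, and Klkb1 was named only together with a second gene, so these 3 were not analysed here.

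Both samples were carcinoma tissue of mice exposed to DEN, or diethylnitrosamine, a compound that causes liver tumours. One came from wild-type animals (labelled WT) and the other from HLF-deficient animals, which are deficient in hepatic leukemia factor, a hepatocyte transcription factor of the PAR bZIP family. Total RNA of each was hybridised to 1 array. Strain, sex, age, the dose and timing of DEN, how HLF was removed, and whether a sample held 1 tumour or a pool are not given in the sources used here.

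With 1 array per genotype there was no spread between animals to test against. Every value below therefore describes these 2 samples, without an SD, a p-value or a replicate check. Levels are RMA values on a log2 scale, and a difference is always the HLF-deficient level minus the wild-type level, so that 1 is 2-fold. Where a pair of levels is given, the wild-type level comes first. Levels of different genes come from different probes and are not ranked against each other. The floor of expression lay at a log2 level of 2.98, and the 14575 genes at or above it on at least 1 array were compared. Hlf itself stood at log2 5.13 in the wild-type sample and 3.79 in the HLF-deficient one, a change of -1.34 that left it above the floor. The hepatocyte identity of the tissue was visible in both samples: all 8 hepatocyte markers lay at a log2 level of 9.25 or higher, and their summed level was 14.80 on both arrays, with differences from -0.15 (Alb) to 0.32 (Tat). Macrophage markers were present on both arrays (8 of 8, summed log2 level 9.36 and 9.64). So were endothelial markers (7 of 7, 9.35 and 9.65). Of 6 neutrophil markers 4 reached the floor, from S100a9 (-0.52) to Retnlg (0.23), with a summed level of 6.07 and 5.79, and Ly6g and Mmp8 were below it on both. Of 5 adipocyte markers 4 reached it, from Retn (-0.51) to Cidec (0.29), with a summed level of 5.98 on both arrays, and Adipoq was below it on both. Stellate cell markers ranged from -0.13 (Lrat) to 0.73 (Pdgfrb) and platelet markers from -0.17 (Itga2b) to 0.38 (Ppbp). In tissue samples of this kind fewer cells of a type and less RNA per cell cannot be told apart.

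Complement is a chain of proteases and binding proteins in plasma that marks microbes and damaged cells. It starts from antibody (classical), from sugars (lectin) or by spontaneous turnover (alternative), meets at C3, and ends in a pore through the target membrane (terminal). Coagulation is a parallel chain in which contact and tissue factor signals activate serine proteases in turn until thrombin cuts fibrinogen into fibrin, with protein C, protein S and plasmin limiting or dissolving the clot. Hepatocytes are the main source of most of these proteins, and their promoters are known for sites of liver-enriched factors, among them C/EBP, HNF1, HNF4 and PAR bZIP proteins.

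The promoters of 6 members are printed here as examples for the motif search described below. Those of Pros1, C6 and Mbl2 belong to the 3 genes that differed most between the tumours, and no motif searched for was found in their windows. The other 3, of F9, C9 and Fgb, hold a C/EBP-type motif, which is set in capitals. Each run is the 250 bases before the gene start, 5′ to 3′ on the strand of the gene, from RefSeq with build GRCm38.p6.

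Pros1, chr16:62854057-62854306, plus strand: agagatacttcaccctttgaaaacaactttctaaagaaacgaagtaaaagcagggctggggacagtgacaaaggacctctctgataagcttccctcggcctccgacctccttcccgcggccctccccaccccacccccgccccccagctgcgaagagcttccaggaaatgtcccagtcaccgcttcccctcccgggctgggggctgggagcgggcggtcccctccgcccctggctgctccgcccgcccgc

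C6, chr15:4726960-4727209, plus strand: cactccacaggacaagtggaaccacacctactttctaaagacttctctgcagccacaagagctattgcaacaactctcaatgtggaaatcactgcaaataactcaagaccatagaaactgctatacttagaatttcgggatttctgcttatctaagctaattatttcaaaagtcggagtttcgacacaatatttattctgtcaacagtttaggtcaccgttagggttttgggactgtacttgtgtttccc

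Mbl2, chr19:30232678-30232927, plus strand: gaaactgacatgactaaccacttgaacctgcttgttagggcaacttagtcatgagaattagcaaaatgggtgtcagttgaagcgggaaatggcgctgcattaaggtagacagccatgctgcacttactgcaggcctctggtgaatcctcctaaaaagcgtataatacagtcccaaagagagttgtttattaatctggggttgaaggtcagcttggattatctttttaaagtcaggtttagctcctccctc

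F9, chrX:59999214-59999463, plus strand: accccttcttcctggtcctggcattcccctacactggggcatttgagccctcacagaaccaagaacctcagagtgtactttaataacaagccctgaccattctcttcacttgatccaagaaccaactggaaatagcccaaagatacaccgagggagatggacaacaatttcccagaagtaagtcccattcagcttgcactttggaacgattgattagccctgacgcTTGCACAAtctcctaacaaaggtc

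C9, chr15:6445096-6445345, plus strand: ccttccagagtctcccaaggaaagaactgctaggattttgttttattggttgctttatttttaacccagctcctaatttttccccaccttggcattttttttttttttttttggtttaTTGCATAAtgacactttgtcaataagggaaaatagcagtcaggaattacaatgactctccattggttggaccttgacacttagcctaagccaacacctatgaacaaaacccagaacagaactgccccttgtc

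Fgb, chr3:83049864-83050113, minus strand: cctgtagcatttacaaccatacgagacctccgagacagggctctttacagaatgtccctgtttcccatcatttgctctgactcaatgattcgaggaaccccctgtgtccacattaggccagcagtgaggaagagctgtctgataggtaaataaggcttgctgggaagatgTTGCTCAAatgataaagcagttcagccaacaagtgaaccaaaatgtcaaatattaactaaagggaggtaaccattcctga

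RefSeq's promoter table held 28 of the 36 measured members. In windows that reach from 250 bases before to 50 bases after the start, both strands were searched for 5 motifs. The PAR bZIP palindrome TTACGTAA was found in 0 of the 28, against 0.119% of all 32851 windows, and TTATGTAA, a form that PAR bZIP proteins and NFIL3 share, in 0 of the 28, against 0.938%. Both are rare everywhere, so these letters were missing from the windows and nothing is said about binding of HLF. The C/EBP-type motif TTGCNNAA was found in 7 of the 28 (25%), Itih2, Fga, Fgb, C1ra, F11, C9 and F9, against 10.8% of all windows. Counted from the gene start, with -1 the last base before it, the motif began at position -24 in F9 as TTGCACAA and at -132 in C9 as TTGCATAA. In Fgb it read TTGCTCAA and began at -80. The 7 genes with this motif had a median difference of 0.21 (range 0.07 to 0.38) and the 21 without it one of 0.13 (range -0.59 to 0.72), so the narrower range lay inside the wider. The HNF4 motif CAAAGTCCA was in 0 of the 28, against 0.475% of windows. The HNF1 consensus matched in Hc alone among them, from position -80.

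All 36 measured members were at or above the floor in both tumours, with log2 levels from 5.04 to 11.96. None of the 36 differed by 2-fold in either direction. Over all compared genes 1.5% were higher by 2-fold in the deficient sample and 0.364% were lower, so a list of this size would hold few such genes at the general rate. At 1.5-fold, 2 members were higher, Pros1 and C6, and 1 was lower, Mbl2. The share of all compared genes past 1.5-fold was 6.37% in the higher and 3.11% in the lower direction. Among the 545 genes whose mean level lay in the middle range of the members (log2 8.52 to 10.51), 5.14% passed 1.5-fold in either direction. The members' counts are small and near these shares.

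Most members were slightly higher in the HLF-deficient tumour. With the values as deposited 31 of 36 (86.1%) had a positive difference, against 70.1% of genes of like level and 58.2% of all compared genes. This count was 33 with each array centred on its median, 26 after quantile normalization and 27 after removal of a loess trend, where 71.3%, 53.6% and 55.1% of all compared genes were positive. The median difference of the members was 0.14, beside 0.11 for genes of like level and 0.07 for all genes. The value for all genes depended on the floor: it was 0.13, with 66.3% positive, for a floor at the 99th percentile of the receptor probe sets and 0, with 49.8% positive, without a floor. Across 739 genes with 2 or more probe sets the technical SD of the difference was 0.24 per probe set, from how far probe sets of 1 gene disagreed, and 23 of the 36 members (63.9%) lay within 1 such SD. In the level band 65.3% of genes did so, and 49.5% of all compared genes. The median absolute disagreement between the 2 brightest probe sets of a gene was 0.14, so outlying pairs widen this SD. The pairs came from all levels above the floor, not from the members' levels alone. The noise of a probe set below means this SD. It leaves out variation between animals, tumours and hybridisations, which the probe sets of a gene share.

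**Figure D1:**
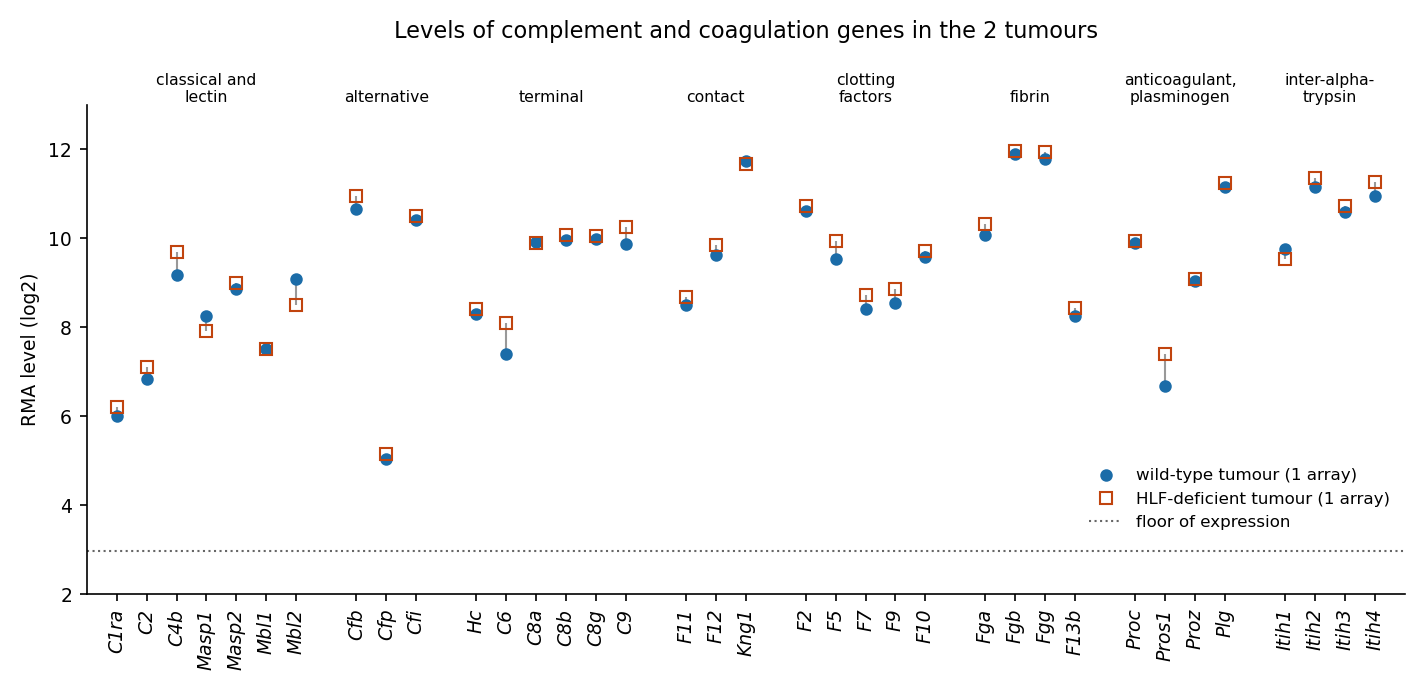
Log2 RMA level of each of the 36 measured genes in the wild-type tumour (filled circles) and the HLF-deficient tumour (open squares), 1 array each, grouped by step of the cascades. Every gene lies above the floor of 2.98 (dotted), and most pairs of symbols touch or overlap, with Pros1, C6, Mbl2 and C4b the most separated.

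The classical and lectin pathways held the widest spread of any group, with 5 of 7 genes higher and 2 lower as deposited. Mbl2 encodes mannose-binding lectin C, a secreted protein that recognises microbial sugars. It had log2 levels of 9.08 (wild-type) and 8.49 (HLF-deficient), a difference of -0.59, and was the lowest member under each scaling (-0.47 centred, -0.69 quantile, -0.71 loess). Its relative Mbl1, mannose-binding lectin A, was level, at 7.51 on both arrays. After quantile normalization Mbl1 stood at -0.16. Masp1, a protease that travels with these lectins, had levels of 8.26 and 7.92 and a difference of -0.34. The second lectin protease, Masp2, which cleaves C4 and C2, had levels of 8.87 and 8.99, a difference of 0.13. So 2 of the 4 lectin pathway genes were lower and the other 2 lay within the noise of a probe set.

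The remaining genes of this group had positive differences as deposited, of which that of C1ra lay within the noise of a probe set. C4b, which encodes the precursor of the C4 convertase subunit, had levels of 9.17 and 9.70. Its difference of 0.53, or 1.44-fold, was the third highest of the 36. Mouse C4b has a near-identical copy, C4a, whose own probe set was at 5.91 and 6.26 (0.35), and either probe set may read both. C2, the protease that joins C4 in the convertase, had levels of 6.84 and 7.11 (0.27). C1ra, a protease of the C1 complex, had levels of 5.99 and 6.20 (0.21). It too has a close copy, C1rb, which shares other probes with it. After quantile normalization C4b stood at 0.44, C2 at 0.09 and C1ra at 0.01, and after loess at 0.43, 0.11 and 0.04.

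Of the alternative pathway 3 genes were measured, all slightly higher in the HLF-deficient tumour. Cfb, the protease of the alternative convertase and an acute phase protein, had levels of 10.67 and 10.94, a difference of 0.28. Cfi, the protease that inactivates C3b and C4b, had levels of 10.42 and 10.51 (0.09). Cfp encodes properdin, which stabilises the convertase and is made by leukocytes rather than hepatocytes. Its levels of 5.04 and 5.16 (0.11) were close to each other. Between the same arrays summed macrophage markers differed by 0.29 and summed neutrophil markers by -0.28. The part of those cells in the value was not tested.

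The terminal pathway split into 2 genes that were higher and 4 that were nearly level. C6, which binds C5b at the start of pore assembly, had log2 levels of 7.39 (wild-type) and 8.09 (HLF-deficient). This difference of 0.69, or 1.62-fold, was 2.92 times the SD of a probe set's difference, and it fell short of 1.5-fold after quantile normalization (0.54) and loess (0.55). C9, the subunit that polymerises into the pore, had levels of 9.86 and 10.25 (0.38). The 3 chains of C8 are made by separate genes and stayed together. C8a had levels of 9.91 and 9.90 (-0.01), C8b 9.97 and 10.08 (0.11), and C8g 9.97 and 10.06 (0.09). Hc, the mouse gene of C5, had levels of 8.30 and 8.42 (0.12). The signs of Hc, C8a and C8g are not settled, since C8a was positive with the arrays centred, C8g negative after quantile normalization and Hc negative after loess.

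**Figure D2:**
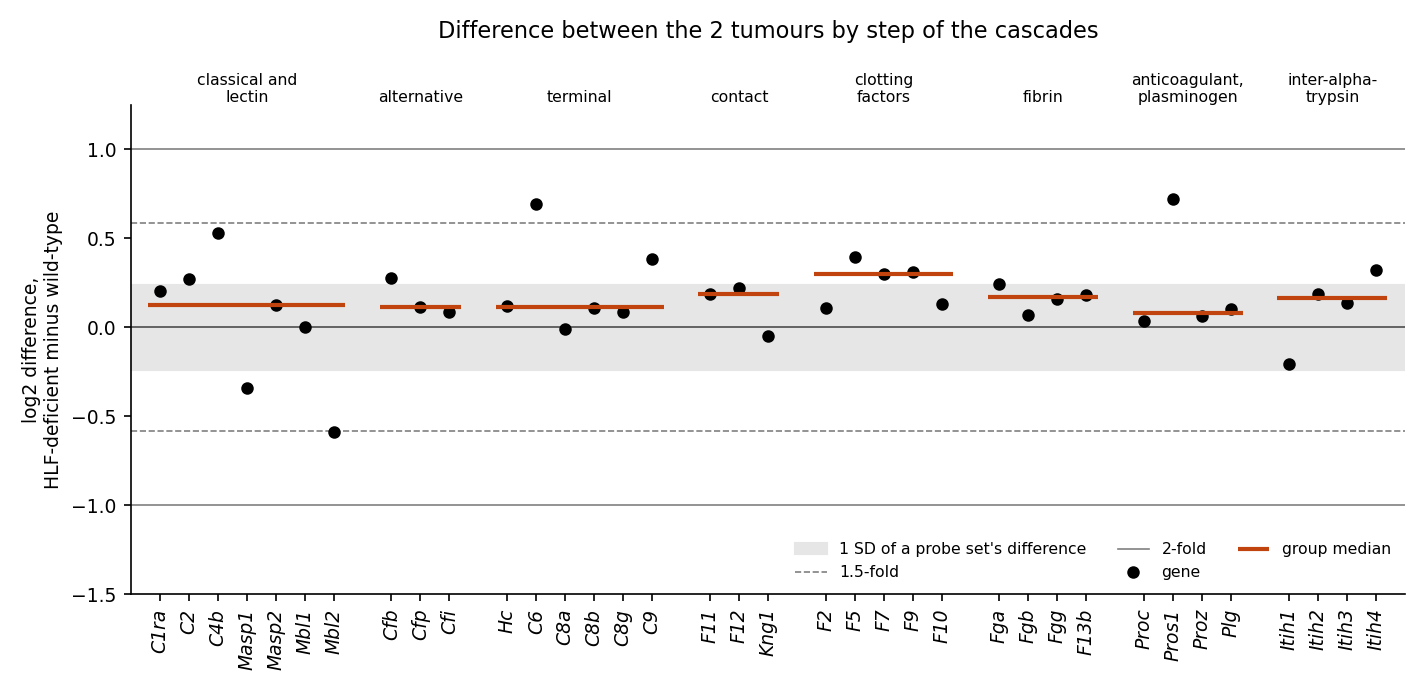
Difference (log2 scale, HLF-deficient minus wild-type) for each of the 36 genes by step of the cascades (points), with the median of each group (bars), the 1.5-fold and 2-fold lines and 1 SD of a probe set's difference (0.24, grey). The points of Pros1 and C6 lie above and that of Mbl2 just below the 1.5-fold lines as deposited, and no point reaches 2-fold.

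Among the proteins of the contact system, which starts clotting on charged surfaces and releases bradykinin, 3 genes were measured. F12, the protease that starts it, had levels of 9.64 and 9.86, a difference of 0.22. F11, which activates factor IX, had levels of 8.51 and 8.69 (0.18). Kng1, the precursor of bradykinin and cofactor of both proteases, had levels of 11.73 and 11.68 (-0.05), a sign that turned to 0.07 with the arrays centred. All 3 lay within the noise of a probe set. Its copy Kng2, named here after its value was seen, differed by 0.23, and probes may be shared between them.

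All 5 clotting factor genes were higher in the HLF-deficient tumour, under each of the 4 scalings. Their median of 0.30 was the highest of the 8 groups, and it was 0.42 centred, 0.20 after quantile normalization and 0.17 after loess. As deposited, 70.1% of genes of like level and 58.2% of all compared genes were positive too. F5, the cofactor that speeds the formation of thrombin, had levels of 9.54 and 9.93, a difference of 0.40. F9, the protease missing in haemophilia B, had levels of 8.54 and 8.85 (0.31). F7, which starts clotting with tissue factor, had levels of 8.42 and 8.72 (0.30). The 2 factors farther down the chain were closer to level. F10, which cleaves prothrombin, had levels of 9.57 and 9.70 (0.13), and F2, prothrombin itself, 10.62 and 10.73 (0.11). Both lay within the noise of a probe set, and after loess they stood at 0.04 and 0.05. None of the 5 reached 1.5-fold.

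With the brighter probe set of Fga, the fibrin group was the most uniform of those with 4 or more genes, its differences spanning 0.07 to 0.24. Fibrinogen is assembled from 3 chains whose genes lie next to each other. Fga had levels of 10.07 and 10.32 (0.24), Fgb 11.89 and 11.96 (0.07) and Fgg 11.77 and 11.93 (0.16). Under quantile normalization the difference of Fgb was 0, and the other 2 chains kept their sign. A second, dimmer probe set of Fga had levels of 8.69 and 9.26, a difference of 0.58, so probe sets of the same gene disagreed by more than the 3 chains did. With the mean of both, Fga stood at 0.41. The group then spanned 0.07 to 0.41, wider than the clotting factors at 0.11 to 0.40. F13b, the carrier subunit of the enzyme that cross-links fibrin, had levels of 8.25 and 8.43 (0.18).

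Pros1 had the largest difference of all members. It encodes protein S, the vitamin K-dependent cofactor of activated protein C, which is made by hepatocytes, endothelial cells and other cells and also serves as a ligand of TAM receptors. Log2 levels were 6.68 (wild-type) and 7.40 (HLF-deficient), which is 0.72 or 1.65-fold higher, and 96.3% of the compared genes had a lower difference. The value was 0.84 with the arrays centred, and it fell short of 1.5-fold after quantile normalization (0.55) and after loess (0.55). The summed level of endothelial markers differed by 0.30 between the arrays, with 4 of 7 markers positive and 3 negative. Lyve1 (1.21), Cdh5 (0.95), Pecam1 (0.81) and Kdr (0.51) were positive, and Stab2 (-0.06), Tek (-0.13) and Clec4g (-0.76) negative. The part of endothelial cells in the Pros1 value was not tested.

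The other members of the anticoagulant and plasminogen group were near level. This does not extend to inhibitors outside the members, such as Tfpi at 0.81. Proc, the protease that protein S assists, had levels of 9.90 and 9.94 (0.04). Proz, cofactor of an inhibitor of factor X, had levels of 9.03 and 9.09 (0.06). Both differences were negative, at -0.05 and -0.04 after quantile normalization and at -0.05 each after loess. Plg, the precursor of the clot-dissolving protease plasmin, had levels of 11.15 and 11.25 (0.10).

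Inter-alpha-trypsin inhibitor heavy chains are secreted proteins, some of which bind hyaluronan in the extracellular matrix. Itih4, an acute phase member, had levels of 10.95 and 11.27, a difference of 0.32. Itih2 had levels of 11.16 and 11.35 (0.19) and Itih3 levels of 10.59 and 10.73 (0.14). Itih1 alone was lower, with levels of 9.75 and 9.54 (-0.21). Itih1, Itih3 and Itih4 are neighbours in the gene order of GRCm38.p6, so genes of 1 locus spanned -0.21 to 0.32.

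Such loci are common in the list. In the order of protein-coding genes 15 of the 39 listed members lay within 5 genes of another member, in 6 loci. Cfb and C2 lie side by side and differed by 0.28 and 0.27. F7, F10 and Proz follow each other and differed by 0.30, 0.13 and 0.06. C8b and C8a are adjacent, at 0.11 and -0.01. The Itih locus had the widest span, from -0.21 to 0.32. In the fibrinogen locus Fgb stood at 0.07, beside 0.24 or 0.58 for Fga, depending on its probe set. The noise of a probe set is no yardstick for such gaps, since a gap carries the noise of both genes. Whether neighbours differed beyond noise was not tested.

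Further groupings that cut across the cascades were also described. Positive acute phase proteins, whose synthesis rises in inflammation, were higher in 9 of 9 measured cases as deposited and in 8 of 9 after quantile normalization, where Fgb was at 0. Their median was 0.24, from 0.07 (Fgb) to 0.53 (C4b), against 0.12 for the other 27 members, from -0.59 (Mbl2) to 0.72 (Pros1). Both medians depend on which genes were put in the set, chosen with earlier results of these data known. Of the 9, 0 reached 1.5-fold, and 6.37% of all compared genes were higher by 1.5-fold. The shares of positive differences as deposited were 86.1% of all members, 70.1% of genes of like level and 58.2% of all compared genes. Medians of these groupings were computed with the values as deposited only. The vitamin K-dependent proteins had a median of 0.13 (7 of 7 positive as deposited, without Proc and Proz after quantile normalization or loess). Genes of the serine protease family had a median of 0.16 with 13 of 14 positive as deposited, Masp1 being the exception and Proc turning negative after quantile normalization and loess. Complement genes had a median of 0.12 and an SD over genes of 0.30, and clotting genes one of 0.17 and an SD over genes of 0.18.

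**Figure D3:**
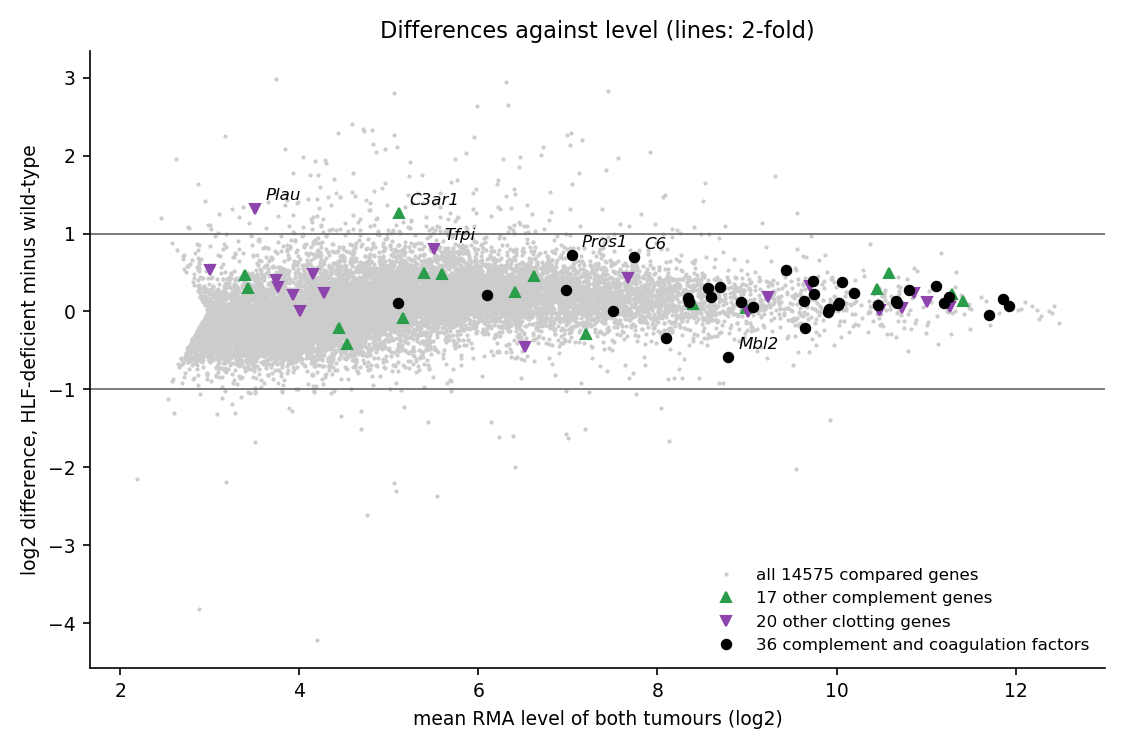
Log2 difference, HLF-deficient minus wild-type, against the mean log2 level of both tumours for the 14575 compared genes (grey), the 36 complement and coagulation factors (black circles), 17 other complement genes (green) and 20 other clotting genes (purple). The black points stay between the 2-fold lines, while C3ar1 and Plau lie above them at lower levels.

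Other genes of both pathways include receptors, membrane regulators and inhibitors, many of them made outside hepatocytes. Of 17 compared complement genes, 0 were lower by 2-fold, against 0.364% of all compared genes, and 1 was higher, against 1.5%. The higher gene was C3ar1, the receptor of the C3a fragment on myeloid cells, with log2 levels of 4.48 and 5.74, or 2.39-fold. The lowest was Colec10, a liver collectin, at -0.41. The median of these genes was 0.26, and 13 of the 17 were positive as deposited, beside 58.2% of all compared genes. The 3 chains of C1q, which macrophages make, differed by 0.26, 0.45 and 0.48 (C1qa, C1qb and C1qc), and Serping1, the inhibitor of C1, by 0.50, genes named after their values were seen. Macrophage markers beside them were mixed: 5 of 8 were positive, with Cd68 at 1.53 and Adgre1 at 0.57. Clec4f and Vsig4, genes of Kupffer cells, stood at -0.37 and -0.36, Cd5l at -0.15 and Marco at 0.12. The part of macrophages in these values was not tested.

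Among 20 other clotting genes 1 was higher by 2-fold and 0 were lower, against 1.5% and 0.364% of all compared genes. Plau, the urokinase that activates plasminogen, stood under the floor on the wild-type array, at 2.84, and at 4.16 on the other, at least 2.27-fold higher. F8, the cofactor of factor IX, made by endothelial cells, was the lowest at -0.46, with levels of 6.75 and 6.30. The median was 0.22, and 18 of 20 were positive as deposited, beside 58.2% of all compared genes. Chosen after their values were seen, Tfpi, the inhibitor of tissue factor, had a difference of 0.81, and Ggcx, the enzyme that carboxylates vitamin K-dependent factors, one of 0.42. Vkorc1, which recycles vitamin K, was at -0.01. The hepatocyte inhibitors were not all alike. Serpinc1 (antithrombin), Serpind1 and Serpinf2 were near level at 0.12, 0.02 and 0.05, while Serpina10 stood at 0.33.

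**Figure D4:**
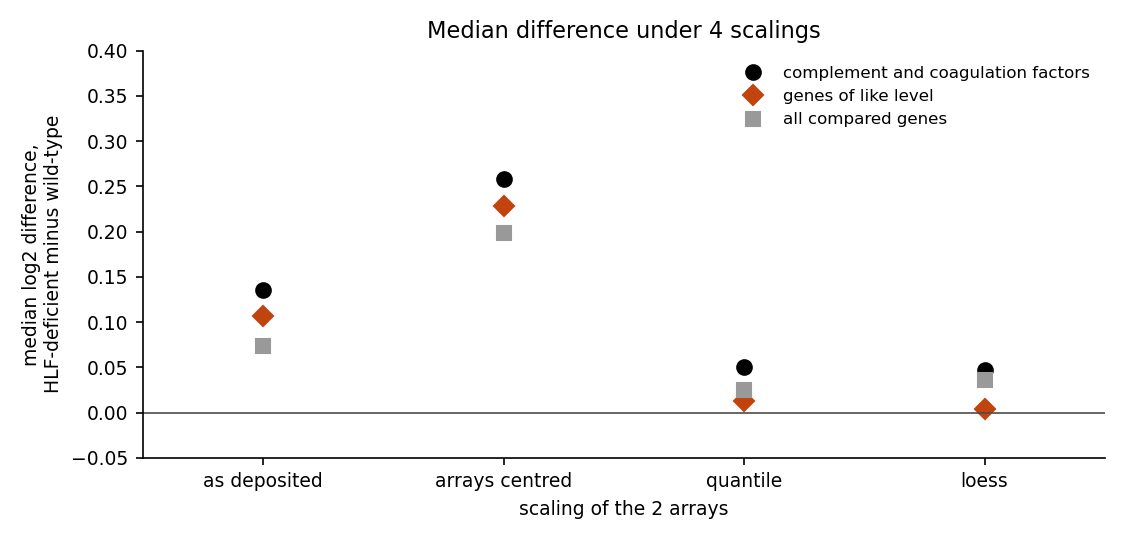
Median difference on the log2 scale (HLF-deficient minus wild-type) for the 36 complement and coagulation factors (circles), of genes of like mean level (diamonds) and of all compared genes (squares) as deposited and under 3 other scalings. The members' median moves with the others, from 0.26 with the arrays centred to 0.05 after quantile normalization or loess.

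The scaling of the arrays moved all these medians together. Centring raised the median of all compared genes from 0.07 to 0.20 and that of the members from 0.14 to 0.26. Quantile normalization and loess lowered them to 0.02 and 0.04 for all genes and to 0.05 for the members in both cases. The members' median lay above that of all genes by 0.06 as deposited and centred, by 0.03 after quantile normalization and by 0.01 after loess. At 1.5-fold the higher members were C4b, C6 and Pros1 with the arrays centred, and there were 0 after quantile normalization and loess. Mbl2 passed 1.5-fold in the lower direction as deposited and in both of the latter, but not centred.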

How the data were processed

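RNA of 1 wild-type and 1 HLF-deficient tumour was measured on 1 array each. Per the submitters' processing notes, the values were made with RMA and Affymetrix Expression Console, of which no version or setting is named. As a method RMA corrects background, normalizes arrays and summarises probe sets. The deposited values are taken as log2 from their range (0.25 to 12.7) and from RMA's usual output. The set of arrays that RMA was run on is not stated in the labels. RMA compresses differences near background.

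Of 35556 probe sets, 21789 named exactly 1 gene in the platform annotation, 1621 several and 12146 none. Only the first kind was used. The floor is the 95th percentile of both arrays' values over 1248 probe sets of olfactory, vomeronasal and taste receptors. Genes of like level are those whose mean lay between the members' quartiles. No test was possible, so genes were called by a fixed fold of 2. All members with a value are named, and of each other list the genes past 2-fold and the highest and lowest. Genes named beyond this rule were chosen after their values were seen. Members and lists were chosen with earlier results of these data known. Gene order and promoters came from RefSeq (GRCm38.p6), where 19856 gene identifiers of the annotation were found. Alternatives were array centring, quantile normalization, a loess trend (span 0.4), probe set means, other floors, folds of 1.5 and 4, list means, and leaving out members with a close copy. Steps were tested on simulated data and run in Python 3.11.15 with pandas 2.3.3, numpy 2.4.6 and statsmodels 0.14.6. The number of arrays limits the precision.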

Additional observations from a re-analysis of the deposited data

How the results depend on the processing

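With 1 array per genotype no replicate could be left out, and no paired analysis was possible because each group holds 1 sample. The count of members past 2-fold was 0 in each direction under every alternative that kept that rule. It became 2 higher and 1 lower at 1.5-fold and 0 at 4-fold. Over all compared genes the counts were 218 higher and 53 lower. They were 929 and 454 at 1.5-fold and 27 and 9 at 4-fold, and with the arrays centred the lower count was 32. Centring adds a constant to all differences and gave medians of 0.26 for the members, 0.20 for all compared genes, 0.38 for other complement genes and 0.34 for other clotting genes. By cascade it gave 0.25 for the classical and lectin group, 0.24 for the alternative and terminal groups, 0.31 for contact, 0.42 for clotting factors, 0.29 for fibrin, 0.20 for anticoagulants and plasminogen and 0.28 for inter-alpha-trypsin genes. After quantile normalization the classical and lectin median was 0.013 and that of clotting factors 0.20. After loess these were 0.012 and 0.17, and contact was 0.061. List means in place of medians gave 0.23 for the terminal and for the anticoagulant group. Without C1ra, C4b and Kng1, an alternative chosen after the data were seen, the classical and lectin median was 0.0031 and the members' median 0.13. The cause of these moves was not tested, apart from the constant that centring adds. No member's difference moved by more than the SD of a probe set's difference (0.24) under any of the alternatives that change it. Genes near the floor are limited by signal over background, which concerns none of the 36.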

Other observations

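Receptors through which the proteases and fragments of both cascades act on cells were looked at in addition, a choice made after the other values were seen. F2r, the thrombin receptor PAR1, stood at log2 6.10 (wild-type) and 6.98 (HLF-deficient), a difference of 0.88. Cd93, a receptor of endothelial and myeloid cells once described as a receptor of C1q, had levels of 4.28 and 6.20, or 3.79-fold. It was the 1 gene of 8 compared complement and clearance receptors beyond 2-fold. Over all compared genes 1.5% were higher by 2-fold. The subunits of the complement receptor CR3, Itgam and Itgb2, differed by 0.44 and 0.40. C5ar2, the second receptor of the C5a fragment, was lower at -0.52. The hepatocyte receptors that clear plasma glycoproteins, Asgr1 and Asgr2, were near level at 0.12 and -0.15. The bradykinin receptors Bdkrb1 and Bdkrb2 were dim and lower, by -0.33 each. Bdkrb1 lay under the floor on the HLF-deficient array, at 2.76, and Bdkrb2 had levels of 4.02 and 3.69. Of the 4 compared protease and kinin receptors 2 were positive and 2 negative. Endothelial and macrophage markers differed in sum by 0.30 and 0.29 between the same arrays, and their part in these values was not tested.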
